A study of Mus musculus with 8 samples.

Results

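Microbe-induced epithelial defence genes are genes that the intestinal lining switches on when bacteria or their products, or the cytokines they provoke, reach it. The 10 genes described here were chosen by name from the deposited table of read counts, which held 55421 genes: Reg3a, Reg3b, Reg3g, Retnlb, Duox2, Duoxa2, Saa1, Dmbt1, Fut2 and Il18. All 10 were found once each, and all 10 had enough counts to be tested. Total RNA of small intestine from wild-type mice was sequenced in 8 samples. Every mouse spent 7 days in 7% oxygen. The 4 Hypoxia samples had no other treatment, and the 4 Hypoxia+Nitrate samples were from mice given nitrate at 4 mM in addition. No group at normal oxygen was among the samples analysed here, so every comparison is between nitrate and no nitrate under hypoxia. The labels name neither the strain, age or sex of the mice, nor the gut segment or the route of nitrate. The extraction text speaks of islets, although the tissue is labelled small intestine. Whether each sample is a separate animal is also not stated, so p-values measure only the spread between these samples.

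The lining of the small intestine keeps bacteria at a distance with secreted proteins. Enterocytes and Paneth cells release the Reg3 lectins, of which Reg3g and Reg3b bind bacterial cell walls; their transcription is known to depend on MyD88 signalling and on interleukin-22 acting through STAT3. Goblet cells release Retnlb, and the DUOX2 oxidase with its maturation factor DUOXA2 makes hydrogen peroxide at the apical membrane. FUT2 adds fucose to the surface glycans, and interleukin-18 is a cytokine that epithelial cells store as a precursor.

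The 3 Reg3 genes lie in 1 cluster on chromosome 6 (GRCm38), Reg3b at 78370657 to 78373466 and Reg3a at 78380709 to 78383827 on the plus strand, and Reg3g at 78466269 to 78468872 on the minus strand. Their promoters are shown because the 3 genes are close relatives of which 2 passed the test and 1 did not. Each window runs from 250 bases before to 50 bases after the RefSeq start site (GRCm38.p6): chr6:78380459-78380758 on the plus strand for Reg3a, chr6:78370635-78370934 on the plus strand for Reg3b and chr6:78468825-78469124 on the minus strand for Reg3g. Capitals mark matches, on either strand, to TATAAA (the TATA box) or TTCNNNGAA (the palindrome that STAT proteins are known to bind).
Reg3a: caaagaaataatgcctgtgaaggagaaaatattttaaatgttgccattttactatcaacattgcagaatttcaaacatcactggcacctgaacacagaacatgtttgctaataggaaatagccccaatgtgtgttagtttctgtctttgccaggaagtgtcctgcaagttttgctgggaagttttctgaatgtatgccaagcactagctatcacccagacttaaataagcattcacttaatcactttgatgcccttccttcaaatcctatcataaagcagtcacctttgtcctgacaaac
Reg3b: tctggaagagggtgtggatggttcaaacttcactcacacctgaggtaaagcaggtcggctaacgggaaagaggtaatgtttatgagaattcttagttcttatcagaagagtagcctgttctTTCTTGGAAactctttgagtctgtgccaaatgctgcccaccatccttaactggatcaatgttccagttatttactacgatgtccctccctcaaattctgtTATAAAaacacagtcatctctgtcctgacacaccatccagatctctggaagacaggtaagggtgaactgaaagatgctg
Reg3g: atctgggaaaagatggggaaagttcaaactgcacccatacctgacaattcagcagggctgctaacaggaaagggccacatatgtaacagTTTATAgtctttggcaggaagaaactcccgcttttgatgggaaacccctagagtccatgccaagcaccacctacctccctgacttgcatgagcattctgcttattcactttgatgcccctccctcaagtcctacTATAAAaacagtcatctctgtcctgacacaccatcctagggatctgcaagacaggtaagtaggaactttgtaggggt
Reg3b and Reg3g each held a TATA box in the sense direction, starting 29 and 27 bases before the start site, and Reg3g a second TATAAA match on the other strand at 161 bases. The Reg3a window held neither motif. The STAT-type site TTCTTGGAA in Reg3b started 129 bases before the start site. Over all 32851 promoter windows of this length, 13.6% held TATAAA and 8.3% held TTCNNNGAA, and the motifs as searched do not overlap. The Reg3b and Reg3g windows were identical at 71.4% of 294 aligned bases, and Reg3a matched Reg3g at 73.7% of 243. Among the longest protein-coding transcripts of the 3 genes no stretch of 50 bases was shared, so reads of that length can be told apart within the family.

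Duox2 (chromosome 2, 122279247 to 122298449 in GENCODE, minus strand) and Duoxa2 (122298900 to 122302885, plus strand) are arranged head to head, with 673 bases between the start sites of these windows. They are shown because they encode an enzyme and the partner it needs, and both had fewer counts with nitrate. The windows are chr2:122298178-122298477 on the minus strand and chr2:122298650-122298949 on the plus strand, with capitals as above.
Duox2: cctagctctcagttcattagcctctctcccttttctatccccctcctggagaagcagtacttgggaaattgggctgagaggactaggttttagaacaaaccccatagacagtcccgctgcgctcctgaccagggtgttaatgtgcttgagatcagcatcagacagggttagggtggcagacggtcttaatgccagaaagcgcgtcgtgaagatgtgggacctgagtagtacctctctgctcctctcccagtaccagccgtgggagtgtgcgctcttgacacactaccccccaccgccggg
Duoxa2: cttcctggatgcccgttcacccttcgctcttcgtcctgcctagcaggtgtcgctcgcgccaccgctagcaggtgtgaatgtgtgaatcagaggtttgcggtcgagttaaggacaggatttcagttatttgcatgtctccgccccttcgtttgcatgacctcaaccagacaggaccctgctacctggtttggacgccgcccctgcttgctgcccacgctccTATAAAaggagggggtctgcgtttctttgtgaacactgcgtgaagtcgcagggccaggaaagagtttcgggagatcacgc
Duoxa2 held a TATA box starting 30 bases before its start site, and the Duox2 window held neither motif. The core hypoxia response element ACGTG, searched on both strands, was in 0 of the 7 members' windows in the RefSeq table and in 19.6% of all windows. Retnlb, Dmbt1 and Fut2 had no entry in that table.

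The libraries differed in content before any member is considered. Total counts ranged from 5345377 to 21835865 in Hypoxia and from 8662279 to 63943036 in Hypoxia+Nitrate. Mitochondrial protein-coding genes held 0.423% to 1.06% of them in Hypoxia and 64.0%, 7.31%, 6.90% and 49.3% in Hypoxia+Nitrate 1 to 4. The factors of the trimmed mean of M-values (TMM), which scale library sizes for CPM and tests, differed widely. They ran from 0.633 to 3.69 in Hypoxia and from 0.220 to 2.13 in Hypoxia+Nitrate, lowest in Hypoxia+Nitrate 1 and 4. A background level was estimated in each library from 1469 odorant, vomeronasal and trace-amine receptor genes, taken to be mostly silent in gut. Scaled to exonic length, it equalled 39.1% to 63.7% of the nuclear protein-coding total without nitrate and 2.75% to 23.2% with it. All 8 enterocyte markers were called higher, though 0 were without Hypoxia 1, 0 without Hypoxia 4, 1 without Hypoxia 3 and 5 with library size alone. Their summed level, as CPM of nuclear protein-coding counts (nuclear CPM), was 192 to 2754 in Hypoxia and 3448 to 47343 in Hypoxia+Nitrate. Hypoxia+Nitrate 1 and 4 stood apart from 2 and 3, with 47343 and 47062 against 5733 and 3448. In bulk tissue, fewer cells of a type and less RNA per cell cannot be told apart.

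Against this ground, Reg3a and Reg3b were higher and Duox2 was lower with nitrate, and 7 members did not pass the test. On the log2 scale Reg3a differed by 4.81 (SE 1.19, adjusted p = 0.0172 in the quasi-likelihood test of edgeR), Reg3b by 3.92 (SE 1.08, adjusted p = 0.0255) and Duox2 by -3.77 (SE 0.854, adjusted p = 0.0126), all adjusted over 35431 genes. These 3 of 10 stand beside a background of 24.4% of all genes called, 11.7% higher and 12.7% lower, so the share of members called was near the background. Of all calls 48.1% were higher with TMM scaling, 35% with relative-log-expression factors, 34.4% under upper-quartile scaling and 13.5% where library size was the only scale. The members' median log2 fold change was 0.68 and that of all genes -0.58. That all-gene median depended on the scaling and was -1.07 when libraries were scaled by size alone, where 5.08% of all genes and 0 members were called.

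**Figure D1:**
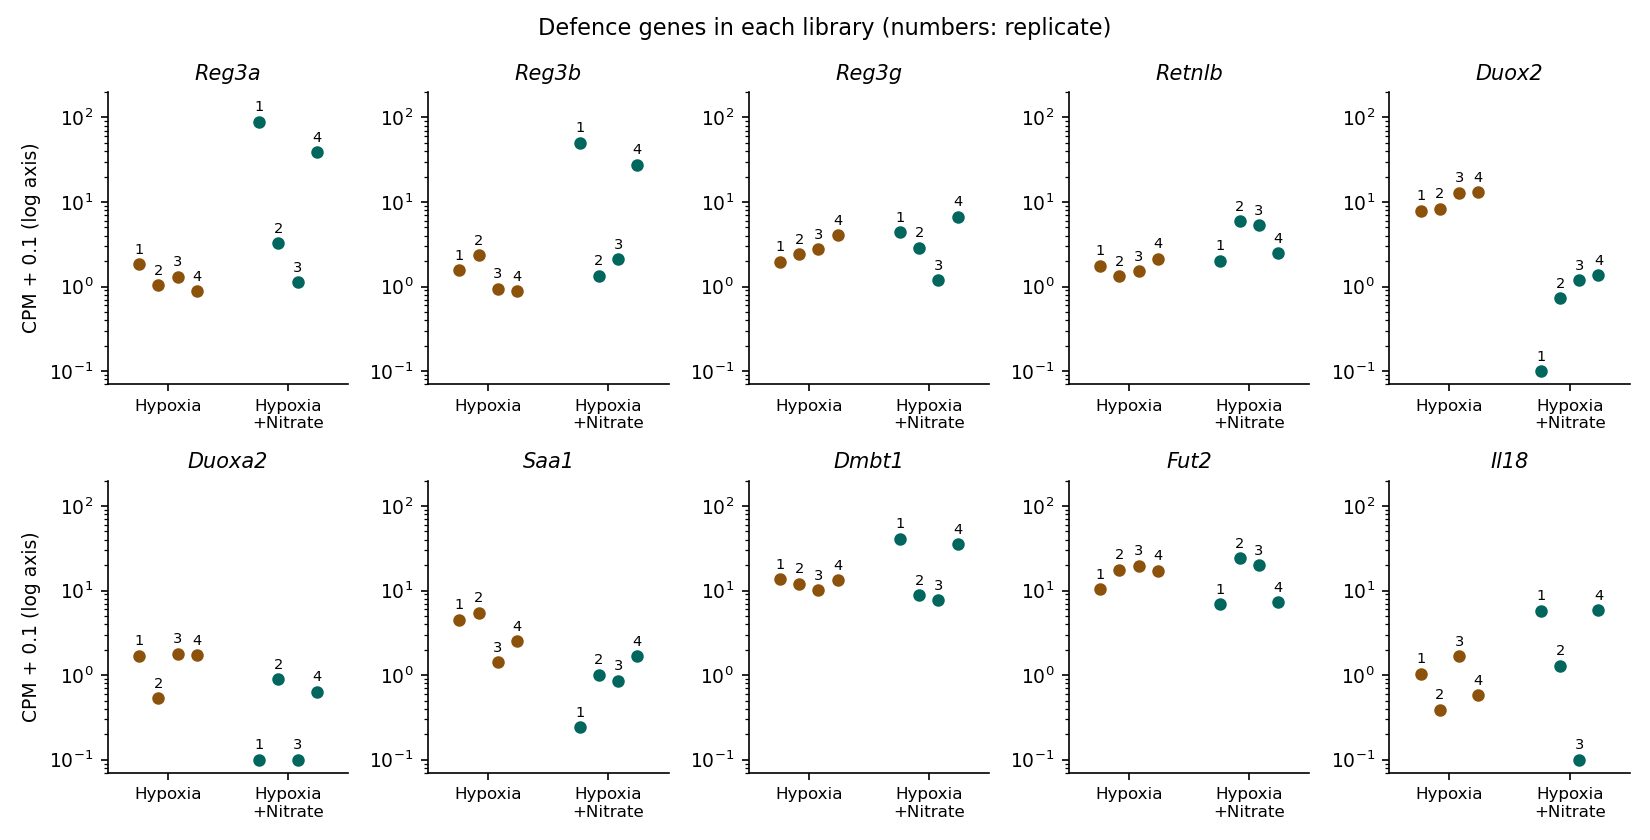
CPM (counts per library size scaled by the trimmed mean of M-values, TMM) plus 0.1 on a log axis for each defence gene, 1 point per library, numbered by replicate. Reg3a and Reg3b are high in Hypoxia+Nitrate 1 and 4; Reg3a overlaps Hypoxia in replicate 3 and Reg3b in replicates 2 and 3, while all 4 Duox2 points with nitrate lie below all 4 without.

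The Reg3 lectins come first. Reg3a, a secreted C-type lectin, had 26, 13, 23 and 13 counts in the libraries without nitrate, in replicate order, and 1254, 56, 19 and 800 in those with it. After TMM scaling this was 1.17 ± 0.417 CPM (mean ± SD, n = 4) against 33.1 ± 41.2 (n = 4). Hypoxia+Nitrate 1 and 4, at 89.1 and 39.0 CPM, were far above Hypoxia; Hypoxia+Nitrate 3, at 1.03 CPM, lay inside the Hypoxia range.

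Reg3b, whose protein kills bacteria by disturbing their membranes, was also highest in Hypoxia+Nitrate 1 and 4. It had 22, 31, 16 and 13 counts in the libraries without nitrate, in replicate order, and 705, 22, 37 and 566 in those with it, or 1.34 ± 0.686 CPM against 20.2 ± 23.4 (n = 4 each). Hypoxia+Nitrate 2 and 3, at 1.25 and 2.01 CPM, lay inside the Hypoxia range. Without Hypoxia+Nitrate 1 and 4, which also held the most enterocyte marker counts, neither gene passed: the log2 fold change was 0.91 for Reg3a (adjusted p = 0.364) and 0.38 for Reg3b (adjusted p = 0.726, edgeR). Dropping any single Hypoxia library ended both calls with folds of similar size, 4.68 to 5.06 for Reg3a and 3.60 to 4.30 for Reg3b (adjusted p = 0.0523 to 0.0618 for Reg3a and 0.0517 to 0.0858 for Reg3b, edgeR), and dropping Hypoxia+Nitrate 1 ended that of Reg3b (2.96, adjusted p = 0.0609).

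Reg3g, the lectin best known for keeping bacteria off the small intestinal surface, did not pass the test. For this gene the 4 libraries without nitrate held 28, 32, 51 and 66 counts in replicate order, and the 4 with it 60, 49, 20 and 136. The groups overlapped, at 2.71 ± 0.904 CPM against 3.69 ± 2.35 (n = 4 each), with a log2 fold change of 0.44 (SE 0.686, edgeR adjusted p = 0.638). Library-size scaling turned the direction, to -0.94 (adjusted p = 0.784).

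Ratios within a library do not depend on how libraries are scaled to each other. Reg3a counts relative to Reg3g, as log2 of counts plus 0.5, were -0.10, -1.27, -1.13 and -2.30 without nitrate, in replicate order, and 4.37, 0.19, -0.07 and 2.55 with it. The groups did not overlap, although Hypoxia 1 and Hypoxia+Nitrate 3 nearly met. The means differed by 2.96 (exact permutation test, 2-sided, p = 0.0286, which is the lowest possible with 4 against 4 samples; adjusted p = 0.0571 over 4 ratios). With expected background subtracted from both genes the difference was 3.79 and no longer at that limit (exact permutation test, p = 0.171, adjusted p = 0.2). In Hypoxia the summed counts of both genes were close to background, at 1.34 times the expected level for Reg3a and 1.23 for Reg3g. Reg3b relative to Reg3g differed by 2.41 and the groups overlapped (exact permutation test, p = 0.0857, adjusted p = 0.114).

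**Figure D2:**
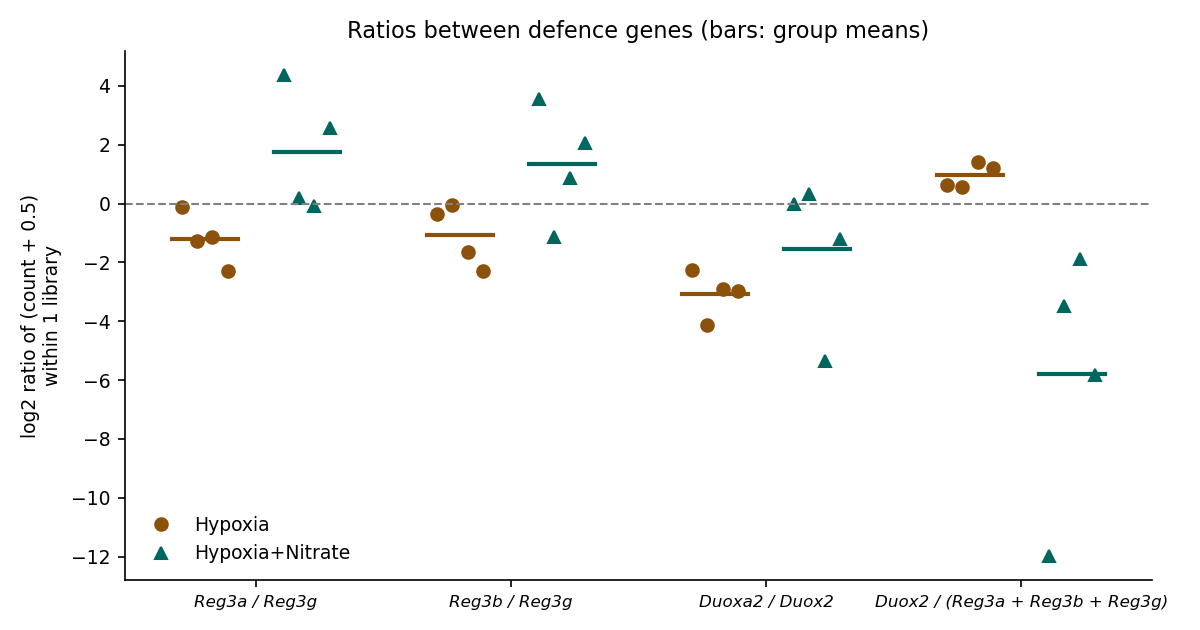
Log2 ratios between members within 1 library, with 4 points and a mean bar per group. The Reg3a to Reg3g ratio is higher and the ratio of Duox2 to the summed Reg3 genes lower in all 4 nitrate libraries than in all 4 without; the other ratios overlap.

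Epithelial genes were also called higher with nitrate, so the Reg3 genes were set against them. Per 1000 counts of 10 epithelial reference genes (Epcam, Cdh1, keratins, claudins, Vil1 and Ezr), Reg3a stood at 14.0 ± 7.91 in Hypoxia and 4.24 ± 2.38 in Hypoxia+Nitrate (n = 4 each), and Reg3b at 12.9 ± 3.62 and 2.996 ± 1.23. The Hypoxia values rest on counts of 0.923 to 1.74 times background for Reg3a and 0.667 to 2.26 times for Reg3b, and so largely on background. With those counts as the scale, 56% of all genes were called lower and 0.00564% higher. In that fit Reg3a and Reg3b did not pass (log2 fold change -1.72, adjusted p = 0.328, and -2.10, adjusted p = 0.242, edgeR), and the 6 members called, Duox2, Duoxa2, Saa1, Reg3g, Dmbt1 and Fut2, were all lower. All 10 reference genes were themselves called higher under TMM scaling, but 0 without Hypoxia 1, 5 without Hypoxia 3 and 4 without Hypoxia 4.

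**Figure D3:**
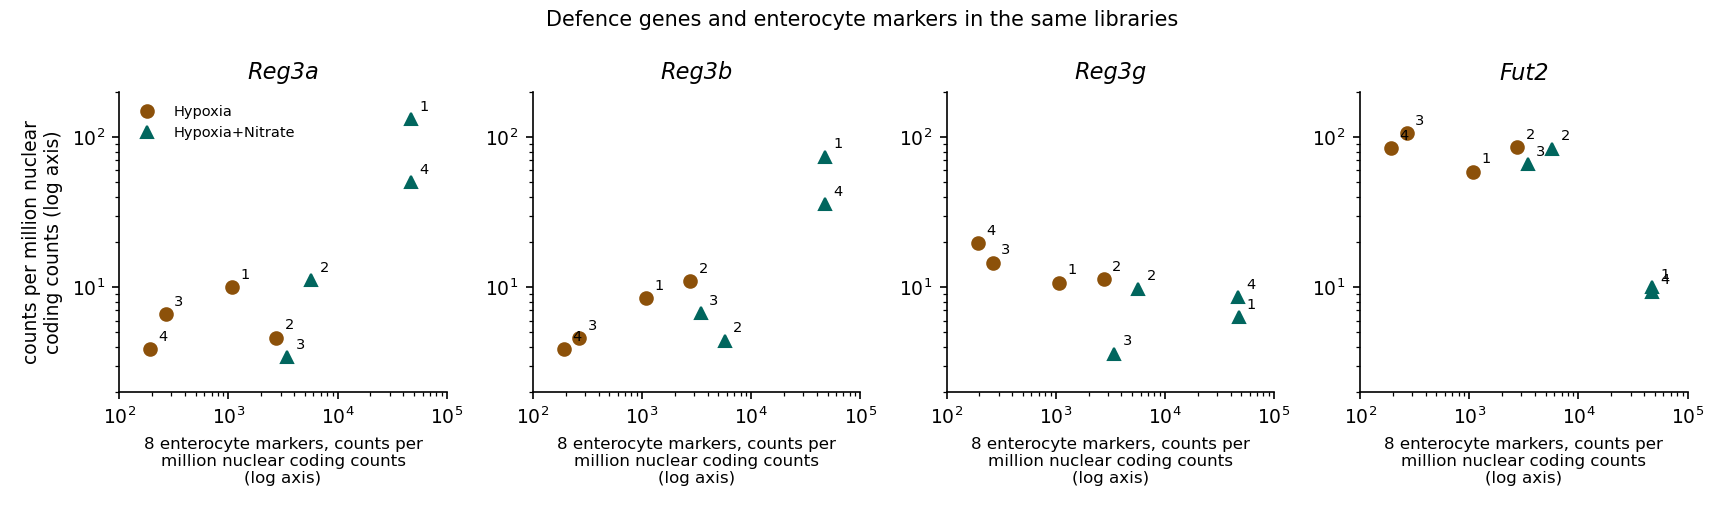
Reg3a, Reg3b, Reg3g and Fut2 against the summed level of 8 enterocyte markers, both as nuclear CPM on log axes, 1 point per library numbered by replicate. Hypoxia+Nitrate 1 and 4 lie at the right, with the highest Reg3a and Reg3b and the lowest Fut2. Background density was also lowest in these libraries.

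The 2 libraries rich in enterocyte markers also separated Fut2, in the other direction. Fut2 (chromosome 7, 45648591 to 45666394) encodes the fucosyltransferase of the gut surface. In nuclear CPM it was at 9.996 and 9.31 in Hypoxia+Nitrate 1 and 4, below 83.7 and 66.1 in Hypoxia+Nitrate 2 and 3 and 59.0 to 106 in Hypoxia. Its CPM did not pass, at 16.1 ± 4.02 against 14.4 ± 8.74 (n = 4 each; log2 fold change -0.16, SE 0.497, edgeR adjusted p = 0.825). Background was likewise low in Hypoxia+Nitrate 1 and 4, at 2.96 and 4.76 counts per kb of exon. It was 12.7 and 11.8 in Hypoxia+Nitrate 2 and 3. Fut2 counts were 5.71 to 6.09 times background in all 4 nitrate libraries. The part of background in this separation was not tested.

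Duox2, the peroxide-making oxidase, was lower in each nitrate library than in any Hypoxia library. For this gene the 4 libraries without nitrate held 117, 113, 242 and 214 counts in replicate order, and the 4 with it 0, 11, 20 and 26, although the nitrate libraries had more nuclear protein-coding counts. That is 10.4 ± 2.78 CPM against 0.746 ± 0.566 (n = 4 each). The counts were 0.953 to 1.85 times the expected background (the receptor-gene level scaled to the length of Duox2) in Hypoxia and 0 to 0.807 times with nitrate, while that background itself was lower with nitrate; its part in the difference was not tested. The groups did not overlap, as for 40.8% of all genes tested and, with nitrate below, 28.8%. The log2 fold change was negative under all 22 alternatives in which Duox2 could be fitted, -7.64 to -3.37, and passed in 19. It missed with library size alone (edgeR adjusted p = 0.0511), without Hypoxia 1 and 2 (0.0741) and with the background share as a covariate (0.768). The fit after background subtraction is not among the 22, because Duox2 was not one of the 6 members tested there.

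The ratio of Duox2 to the summed Reg3 genes, taken from the same counts as the calls above, showed the same order without any scaling. On the log2 scale it was 0.62, 0.57, 1.42 and 1.21 without nitrate, in replicate order, and -11.98, -3.47, -1.90 and -5.83 with it. The lowest value rests on 0 Duox2 counts and so on the added 0.5. In Hypoxia the summed counts were 1.49 times the expected background for Duox2 and 1.06 to 1.34 times for the Reg3 genes. The Hypoxia ratios thus rest largely on background and on exon length, 6771 bp for Duox2 against 825, 1142 and 2114 bp. The groups did not overlap (difference -6.75, exact permutation test, 2-sided p = 0.0286, adjusted p = 0.0571 over 4 ratios). With background subtracted, the exact permutation test gave p = 0.0286 (adjusted p = 0.114). Subtraction cut Duox2 to 0 in every nitrate library and in Hypoxia 1. There the ratio rests on the added 0.5, so this result adds little to the one without subtraction.

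Duoxa2, which brings DUOX2 to the cell surface, was near the limit of detection. It had 24, 6, 32 and 27 counts in the libraries without nitrate, in replicate order, and 0, 14, 0 and 11 in those with it, and the groups overlapped because Hypoxia 2 was low. The log2 fold change of -1.97 did not pass (SE 1.28, edgeR adjusted p = 0.258), and 57.2% of its exonic length is free of overlap with Duoxa1, which lies on the other strand; without a stated strand setting, reads of the shared end cannot be told apart. Duox1, the paralog of Duox2, fell by 3.79 on the log2 scale (SE 0.679, adjusted p = 0.00917), and its own partner Duoxa1 stood at -3.17 (adjusted p = 0.0653, edgeR). Duox1 had 83, 126, 170 and 142 counts in Hypoxia, in replicate order, and 3, 21, 10 and 7 with nitrate. Its longest coding transcript is 5267 bases, and background in Hypoxia was 12.0 to 20.7 counts per kb of exon. The part of background in the fall of Duox1 was not tested. Duox1 and Duox2 are 80.8% identical over 4988 aligned transcript bases, and 6.79% of 50-base stretches of Duox2 also occur in Duox1. Cyba and Nox1 are named after their values were seen. Cyba, the p22phox subunit that partners NOX1 and other NADPH oxidases, rose by 1.97 (adjusted p = 0.0257), and the oxidase Nox1 missed the threshold (1.01, adjusted p = 0.153, edgeR).

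Most members were close to the background level without nitrate. In Hypoxia the summed counts were 0.8 times the expected background for Il18, 1.06 for Reg3b, 1.22 for Saa1, 1.23 for Reg3g, 1.34 for Reg3a, 1.44 for Duoxa2, 1.49 for Duox2, 1.61 for Dmbt1, 2.18 for Retnlb and 2.84 for Fut2. That is under 2 times background for 8 of the 10 genes. The same share among all genes is not given here, so this closeness is not shown to be particular to the members. With nitrate the ratio was 514, 5.36, 1.95 and 204 in replicate order for Reg3a, and 209, 1.52, 2.74 and 104 for Reg3b. Libraries 1 and 4 carried both. For Duox2 it was under 1 in all 4 nitrate libraries. For Saa1 it was 0.273 to 0.51 in replicates 1 to 3 and 2.71 in replicate 4, and for Duoxa2 0 in replicates 1 and 3, 1.21 in replicate 2 and 2.54 in replicate 4. After subtraction of expected background, tested in limma-voom on 14971 genes, 6 members remained and 0 passed, against 13.4% of those genes. Reg3a was at 3.88 (adjusted p = 0.162) and Reg3b at 4.72 (adjusted p = 0.0727). In limma-voom without subtraction neither passed, at 3.16 (adjusted p = 0.197) and 2.65 (adjusted p = 0.207).

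**Figure D4:**
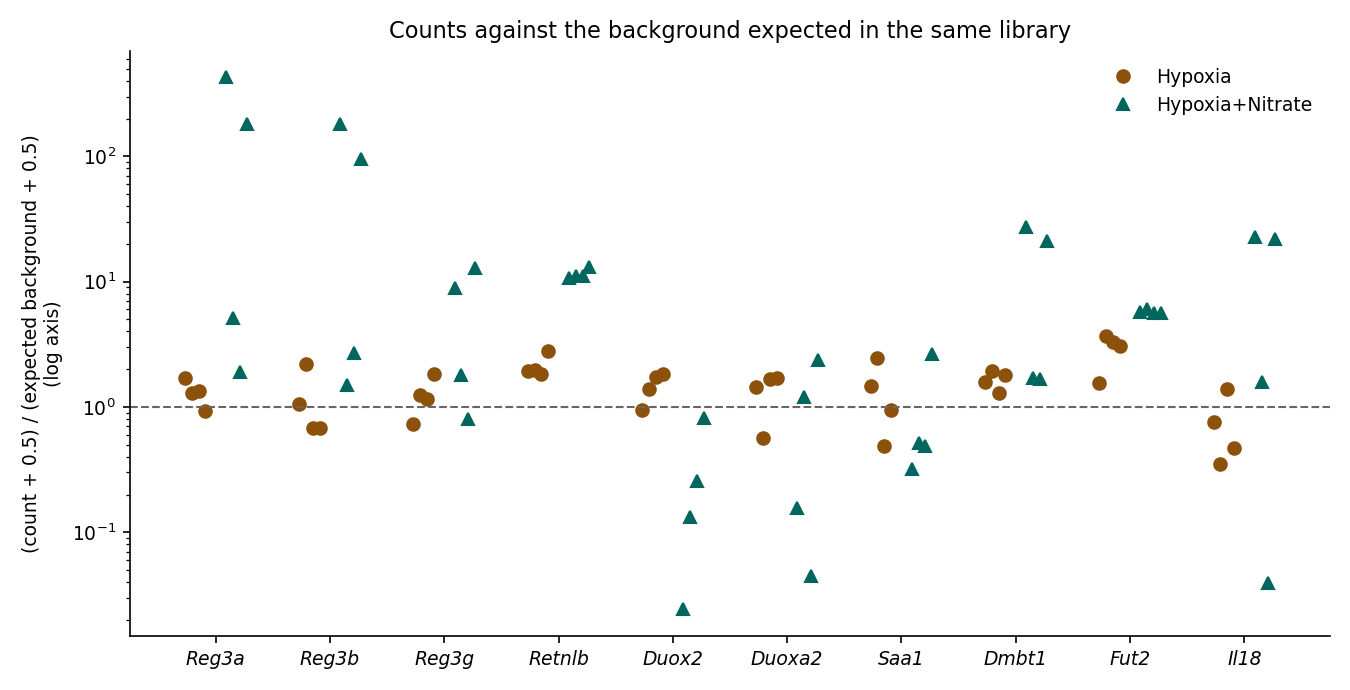
Count plus 0.5 over expected background plus 0.5 in the same library, on a log axis, 4 points per gene and group; the dashed line marks a count equal to background. Retnlb and Fut2 form tight nitrate clusters above all Hypoxia points, and Duox2 with nitrate lies under the line.

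Retnlb (chromosome 16, 48816856 to 48818892) encodes RELM-beta, a goblet cell protein that acts on Gram-negative bacteria. For this gene the 4 libraries without nitrate held 25, 17, 27 and 34 counts in replicate order, and the 4 with it 27, 102, 96 and 49. Relative to background this was 1.87 to 2.86 without and 11.6 to 14.8 with nitrate, with no overlap. For Fut2 it was 1.56 to 3.69 against 5.71 to 6.09, also with no overlap and nearly the same in all 4 nitrate libraries, whose background densities ranged from 2.96 to 12.7 counts per kb of exon. Of all genes with unique exon, 28.1% had nitrate above Hypoxia with no overlap on this measure, so 3 of 10 members, with Reg3a the third, is near the background. The background itself was lower with nitrate, which raises this ratio for any gene whose counts did not fall as much. These ranges are a description, because the measure was looked at after the counts were seen. In CPM the Retnlb groups overlapped, and its log2 fold change of 1.26 missed the threshold (SE 0.674, edgeR adjusted p = 0.178); without Hypoxia+Nitrate 1 and 4 it was called higher (1.87, adjusted p = 0.0275), and its highest nitrate values were in libraries 2 and 3. The 7 goblet cell markers had 4 called higher, among them Zg16 and Tff3; leaving out 1 library gave 1 to 6, with 1 called without Hypoxia 1, 3 or 4 and 2 without Hypoxia+Nitrate 4.

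Dmbt1, a large secreted scavenger protein that binds bacteria, had 201, 164, 190 and 219 counts in the libraries without nitrate, in replicate order, and 578, 153, 139 and 718 in those with it. Libraries 1 and 4 were again high and 2 and 3 low, at 41.06 and 35.03 against 8.70 and 7.57 CPM, on either side of all 4 Hypoxia libraries. The log2 fold change of 0.93 did not pass (SE 0.573, edgeR adjusted p = 0.236).

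Saa1, serum amyloid A, an acute phase protein made in liver and gut epithelium, had 66, 74, 25 and 40 counts in the libraries without nitrate, in replicate order, and 2, 16, 14 and 32 in those with it. Hypoxia 3, at 1.32 CPM, lay below Hypoxia+Nitrate 4 at 1.56, so the groups overlapped. The log2 fold change of -1.98 did not pass in edgeR (SE 0.877, adjusted p = 0.114) and did in DESeq2 (-2.32, adjusted p = 0.0103). Saa2, 94.4% identical to Saa1 over 606 aligned transcript bases, stood at -2.19 (adjusted p = 0.0787) and the more distant Saa3 fell by 3.001 (SE 0.818, adjusted p = 0.0244, edgeR). Saa3 had 62, 57, 24 and 70 counts in Hypoxia, in replicate order, and 4, 8, 13 and 5 with nitrate. Its summed counts were 1.20 times the expected background in Hypoxia and 0.358 times with nitrate. The part of background in the fall of Saa3 was not tested. Reads of Saa1 and Saa2 may be split between them. The 6 liver markers, which can enter with blood or neighbouring tissue, had 0 called; their summed level was 299.8 to 1038 nuclear CPM in Hypoxia and 185 to 512 in Hypoxia+Nitrate, and their part in the Saa values was not tested.

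Il18 had 14, 4, 30 and 8 counts in the libraries without nitrate, in replicate order, and 80, 21, 0 and 118 in those with it. Libraries 1 and 4 were high and library 3 had none, so the groups overlapped (log2 fold change 1.93, SE 1.27, edgeR adjusted p = 0.265). It was called only without Hypoxia+Nitrate 3 (2.54, adjusted p = 0.0448), among the 22 alternatives.

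**Figure D5:**
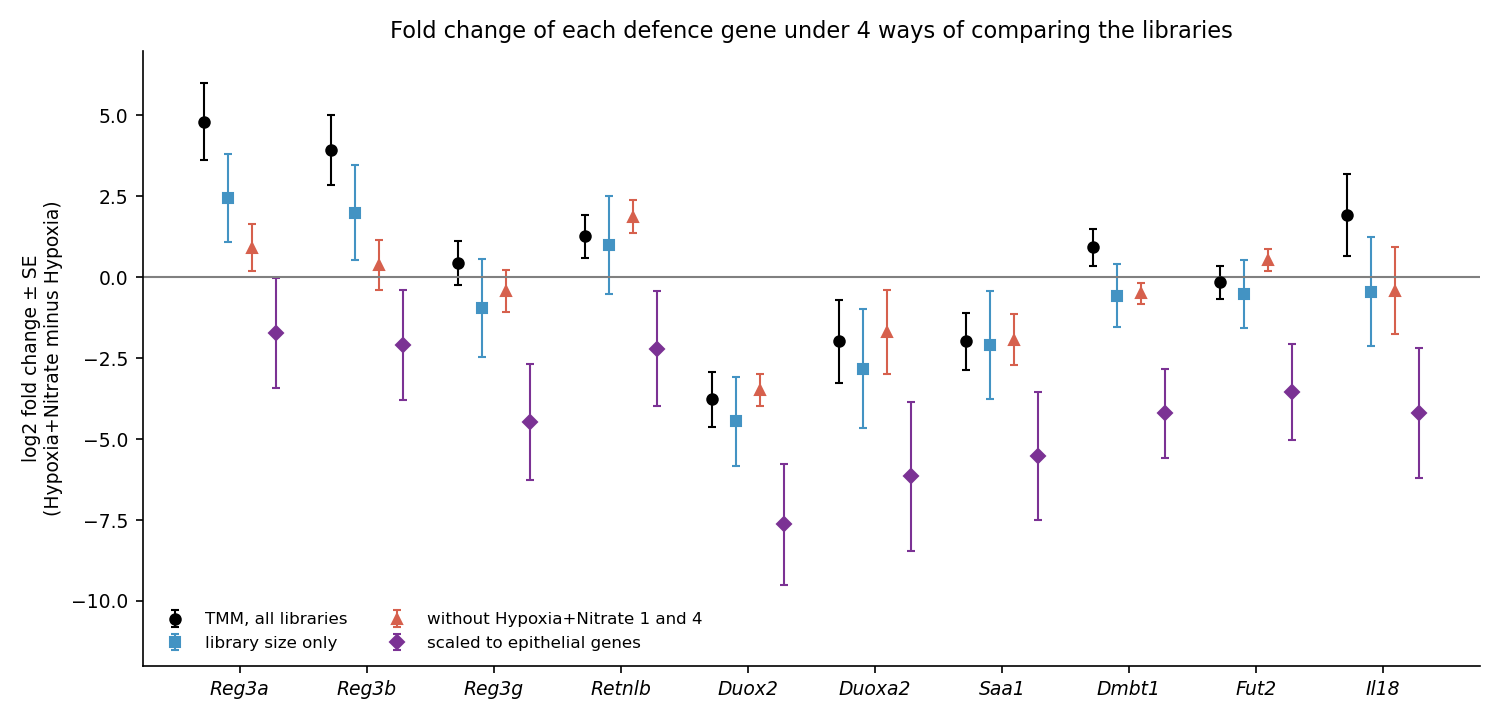
Log2 fold change with its standard error for each member under TMM scaling, library size alone, without Hypoxia+Nitrate 1 and 4, and scaled to 10 epithelial genes. Duox2, Duoxa2 and Saa1 are negative in all 4; the other members change sign between them.

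Per kb of annotated exon the members were at a similar low level without nitrate, from 0.797 CPM per kb (Il18) and 0.84 (Duoxa2) to 2.29 (Retnlb) and 2.97 (Fut2). With nitrate Reg3a led at 40.1, followed by Reg3b at 17.7, Retnlb at 5.51, Dmbt1 at 3.27, Il18 at 3.06, Fut2 at 2.66, Reg3g at 1.75, Saa1 at 0.34, Duoxa2 at 0.209 and Duox2 at 0.11 CPM per kb. Neighbours from Reg3a to Reg3g in this order do not differ beyond their spread, since each gap was smaller than the SD of 1 or both neighbours. The lengths of Reg3g (2114 bp) and Saa1 (2478 bp) include transcripts with retained introns; their longest coding transcripts are 771 and 609 bp. For Fut2 that transcript is 2955 of 5431 bp and for Reg3b 783 of 1142 bp. The mRNA levels of these 4 genes are understated on this scale, which could change their place in the order. Duoxa2 was divided by 1592 bp, of which 910 bp are free of overlap with Duoxa1. If reads of the shared end were not counted, its level is understated as well.

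The signals that switch these genes on were examined in a list of 35 sensors, cytokines and transducers, of which 6 rose, 2 fell and 27 did not pass (median log2 fold change 0.04), a share close to the 24.4% of all genes. The 8 calls became 0 without Hypoxia 1, 3 without Hypoxia 2, 2 without Hypoxia 3 or 4, 4 without Hypoxia+Nitrate 1 or 4, 18 without Hypoxia+Nitrate 2 and 15 without Hypoxia+Nitrate 3. Jak1, a kinase of the interleukin-22 receptor, rose by 3.29 (SE 0.696, adjusted p = 0.0102, edgeR), from 7.81 to 11.9 CPM in Hypoxia to 22.2 to 160.2 in Hypoxia+Nitrate. Nfkbia, the NF-kB inhibitor that NF-kB itself induces, rose by 2.36 (adjusted p = 0.0123), and Stat6, which carries interleukin-4 and interleukin-13 signals, by 2.55 (adjusted p = 0.027, edgeR). Stat3, named after its values were seen because it acts on the Reg3 genes, rose by 2.05 (adjusted p = 0.0309). The bacterial sensors Nod2 and Tlr4 fell by 3.95 and 2.45 (adjusted p = 0.0184 and 0.0223, edgeR), from 1.17 and 0.917 times background in Hypoxia. Il22, also named after its values were seen, had 12 to 25 counts in Hypoxia and 0, 8, 0 and 2 with nitrate, 0.902 times background in Hypoxia, and did not pass (adjusted p = 0.104). With library size alone 0 of the 35 passed.

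Inflammasome genes, whose caspase matures interleukin-18, rose for 4 of 16 and fell for 0 (median 0.40), again close to the all-gene share of 24.4%. The 4 calls became 0 without Hypoxia 1, and 1 without Hypoxia 3 or 4. Casp1, that caspase, rose by 3.71 (SE 0.787, adjusted p = 0.0103), from 1.75 to 2.40 CPM to 29.4, 5.91, 6.48 and 67.8 in Hypoxia+Nitrate 1 to 4. The adaptor Pycard rose by 2.40 (adjusted p = 0.016), the epithelial sensor Nlrp6 by 3.28 (adjusted p = 0.0386) and the pore former Gsdmd by 5.20 (adjusted p = 0.019, edgeR). Gsdmd and Nlrp6 overlapped between groups and were highest in Hypoxia+Nitrate 1 and 4. The receptor chain Il18rap stood at -2.89 and did not pass (adjusted p = 0.119), nor did the decoy Il18bp (-1.44, adjusted p = 0.422, edgeR). With library size alone 0 of the 16 passed.

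Relatives and partners of the members rose for 5 and fell for 3 of the 25 tested, with a median of 0.28; Reg1, Reg2, Reg3d, Retnla and Retnlg had too few counts. The 8 calls stand beside 24.4% of all genes. They became 0 with library size alone (median -1.18), 1 without Hypoxia 1 or 4, 4 without Hypoxia 2, 2 without Hypoxia 3, 16 without Hypoxia+Nitrate 2 and 13 without Hypoxia+Nitrate 3. Pigr, which carries IgA to the lumen, rose by 3.28 (adjusted p = 0.0164), Lypd8, which binds flagella, by 4.00 (adjusted p = 0.0146), and the membrane mucin Muc13 by 4.81 (adjusted p = 0.0167, edgeR), each with the groups apart. The neutrophil attractant Cxcl1 fell by 3.34 (adjusted p = 0.0387, edgeR), named after its values were seen as the third of the genes that fell beside Duox1 and Saa3. Cxcl1 had 24, 42, 66 and 51 counts in Hypoxia, in replicate order, and 5, 0, 8 and 6 with nitrate. The part of background in the fall of Cxcl1 was not tested. Of Reg3d, which lies between Reg3b and Reg3a in the cluster, 4 to 23 counts were found in Hypoxia and 5, 0, 0 and 0 with nitrate.

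Markers of other cell types were counted beside the members. Of 7 Paneth cell markers 6 rose; their sum was 122 to 531 nuclear CPM in Hypoxia and 729 to 3167 in Hypoxia+Nitrate, highest in Hypoxia+Nitrate 3, where Reg3a, Reg3g and Il18 were lowest. Pancreatic acinar cells also make Reg proteins. Their markers had 0 called higher and 2 lower of 9 tested, summed to 108 to 146 nuclear CPM in Hypoxia and 14.0 to 78.1 in Hypoxia+Nitrate, and Cela2a and Amy2b, singled out after their values were seen, had 0 counts in all 4 nitrate libraries and up to 30 in Hypoxia. Neutrophil markers were called lower for 2 of 3 tested, and the third went the other way without passing, at a log2 fold change of 1.47. Macrophage markers were called higher for 2 of 6, lymphocyte markers higher for 3 of 6 and tuft cell markers in 0 of 3. Leaving out 1 library, the calls ranged from 4 to 7 for Paneth, 0 to 8 for acinar, 0 to 2 for neutrophil and macrophage, and 1 to 4 for lymphocyte markers, lowest without 1 or more of the Hypoxia libraries. Their part in the members' values was not tested.

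Among 18471 protein-coding candidates whose log2(CPM + 1) averaged 1 or more, the genes closest to Reg3g across the 8 libraries were Cstf1, C1s1 and Csnk2a2, with root mean square differences of 0.103, 0.159 and 0.163 in that value after centring. Those closest to Duox2 were Myh1, a skeletal muscle myosin, Nptx1, a neuronal pentraxin, and Gpr17, a receptor of oligodendrocyte precursors, at 0.118, 0.245 and 0.268. Each of the 3 had 0 counts in Hypoxia+Nitrate 1 and was called lower. Their summed counts were 1.40, 1.41 and 1.69 times the expected background in Hypoxia and 0.229, 0.161 and 0.205 times with nitrate. Duox2 stood at 1.49 and 0.261 times, so on this measure it did not stand apart from them. For Reg3a, added after the values were seen, the closest genes were Gpa33, Xpnpep2 and Npc1l1, 3 genes of the enterocyte surface, at 0.232, 0.24 and 0.292. Among the members themselves the closest pairs were Dmbt1 with Il18 (0.454), Reg3g with Dmbt1 (0.499) and Reg3a with Reg3b (0.554).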

How the data were processed

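Whole-number read counts per gene were deposited by the authors, as a joint table and as 8 per-sample tables whose values were identical to it. The submitters' processing notes list build GRCm38, DESeq 1.8.3, HISAT, and featureCounts 1.5.0-p3, with no role for each. The annotation, strand setting and treatment of multi-mapping were not given in the sources used here. GENCODE M21, also GRCm38, held 55240 of the 55421 gene IDs. Genes were tested in R 4.3.3 with edgeR 4.0.16: filterByExpr (minimum count 10, total 15), TMM scaling, quasi-likelihood test and Benjamini-Hochberg adjustment at 0.05 over all genes. CPM uses the TMM-scaled library size and was computed from the deposited counts. Standard errors were derived from the fold change and its F statistic. The 4 ratios between members were compared by exact permutation tests. Expected background is the receptor genes' counts per kb of unique exon times the gene's own unique exon length, scaled by 0.5 for X and Y genes. Named genes were the members, up to 5 genes of each list with the lowest p, paralogs and partners, up to 3 markers a cell type, and the 3 nearest patterns of Reg3g and Duox2; exceptions are stated. Alternatives covered scaling, filters, DESeq2 1.42.0, limma-voom 3.58.1, the replicate block, left-out libraries and background. A check on simulated counts recovered 0 of 62 genes changed by 2 on the log2 scale, although 98.4% had the right direction. It recovered 28 of 54 genes changed by 4 and 44 of 56 changed by 6. Of 33547 unchanged genes, 2 were called. In the deposited counts, some genes that differed by about 2 on the log2 scale passed and others did not. Cyba (1.97) and Stat3 (2.05) passed, and Saa1 (-1.98) and Duoxa2 (-1.97) did not. How closely the simulated counts resemble these libraries was not tested. Members and lists were chosen with earlier results of these data known.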

Additional observations from a re-analysis of the deposited data

Results flagged for a closer look

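Duoxa2 in Hypoxia 2 was at 0.436 CPM, far below the other Hypoxia libraries at 1.60 to 1.69 CPM; the gap took up 0.933 of the group's range. It was the only such value among 28 groups of 4 values checked, where chance flags about 1 group in 20. The value rests on 6 counts.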

How the results depend on the processing

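Of 35431 genes, 8653 were called. The count was 1800 with library size alone, 19840 with epithelial scaling, 16708 with no filter, 14689 in DESeq2, 15818 in limma-voom, 20696 with quality weights, 4791 with the replicate block, 4227 without Hypoxia 1 and 2, 2004 of 14971 genes after background subtraction (limma-voom, to be set beside 15818) and 0 with the background covariate (edgeR; 2638 at an unadjusted p under 0.05). Leaving out 1 library gave 1932 (Hypoxia 1) to 22454 (Hypoxia+Nitrate 2). Of the members 3 were called, against 0 with library size alone, with the background covariate, after subtraction (limma-voom, 6 tested) and without Hypoxia 1 and 2, 1 in limma-voom (Duox2), 1 with the replicate block (Duox2) and 6 with epithelial scaling; leaving out 1 library gave 1 to 4, with only Duox2 called without any 1 Hypoxia library. The replicate numbers are not said to pair the samples. Deviations of same-numbered libraries correlated at 0.129, -0.217, 0.271 and -0.0829, and those of differently numbered ones at -0.239 to 0.224. So few values cannot settle whether the samples were paired. Within-library ratios kept their direction under each alternative run; with the replicate block the differences are the same, and 4 pairs cannot reach the threshold. After background subtraction Reg3a to Reg3g no longer had the lowest possible p. Leaving out 1 library, the difference ranged from 2.09 to 3.57 for Reg3a to Reg3g, 1.68 to 3.24 for Reg3b to Reg3g, 0.875 to 2.77 for Duoxa2 to Duox2 and -8.05 to -4.69 for Duox2 to the summed Reg3 genes; each ratio reached an adjusted p of 0.0381 (exact permutation test) without Hypoxia+Nitrate 2, without Hypoxia+Nitrate 3, or both in turn.

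Log2 fold changes turned sign as follows, and the cause was not tested. Epithelial scaling gave Reg3a -1.72, Reg3b -2.10, Reg3g -4.48, Retnlb -2.21, Dmbt1 -4.20 and Il18 -4.20. The background covariate gave Reg3a -0.56, Reg3b -2.14, Reg3g -1.63, Dmbt1 -1.63, Il18 -0.90 and Fut2 1.03. Library size alone gave Reg3g -0.94, Dmbt1 -0.57 and Il18 -0.44. Without Hypoxia+Nitrate 1 and 4, Reg3g was at -0.42, Dmbt1 at -0.49, Il18 at -0.41 and Fut2 at 0.53. Leaving out 1 library, Fut2 ranged from -0.48 to 0.080, and was 0.065 without Hypoxia+Nitrate 4; Reg3g was at -0.0040 with upper-quartile factors. Duox2, Duoxa2 and Saa1 were negative in each of their 22 alternatives, and none of them was tested after background subtraction. Counts of at most 34 for Reg3a, Reg3b, Retnlb, Duoxa2 and Il18 in each Hypoxia library limit what could be detected there.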
